A study of Mus musculus with 8 samples.

Results

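The 9 genes described here encode surface proteins used to mark B cells at later stages of their development. They were chosen by name as known markers, with earlier results of these data known, and are Cd2, Ms4a1, Cr2, Fcer2a, Cd37, Cd38, Cd86, Cd24a and Cd52. All 9 of them were found among the 55487 genes of the table, and all 9 passed the filter on low counts. The sequenced RNA was from mouse cells whose label was pro-B cell, an early stage of the B lineage in bone marrow. There were 4 libraries labelled as CD25 knockout and 4 labelled wild type, and no strain, age, sex or treatment was given. Il2ra encodes CD25, a chain of the receptor for interleukin-2, and the study concerned B cell development without it. The labels do not say whether the deletion was made in all cells of the mouse, nor whether each library is a different mouse, and the p-values cover the spread among these libraries, part of which may be technical.

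The labels were checked first. Il2ra had 144.7, 168.3, 243.7 and 168.3 CPM (counts scaled to library size) in the libraries labelled knockout 1 to 4, against 200.2, 216.4, 215.6 and 140.4 CPM in wild type 1 to 4. The groups overlapped, with a log2 fold change of -0.09 ± 0.19 (SE), and counts summed over all exons do not show whether an exon was missing. The group is therefore called "labelled knockout" throughout, and every direction rests on that label. Kit, a receptor by which pro-B cells are sorted, averaged 1.20 ± 0.488 CPM in the libraries labelled knockout and 1.76 ± 1.06 CPM in wild type (SD, n = 4 each). Per kilobase of exon that was 0.135 CPM in the libraries labelled knockout and 0.198 CPM in wild type, while Cd79a, a subunit of the B cell receptor, had 1482 CPM per kb in the libraries labelled knockout and 1357 CPM per kb in wild type. B lineage identity was thus borne out by its genes, whereas Kit was close to absent in both groups. Other genes of the pro-B and progenitor stages differed widely in level. In the libraries labelled knockout and in wild type, Il7r had 116 and 117 CPM per kb, Rag1 38.85 and 49.0, and Dntt 18.4 and 34.6. Flt3, at 0.316 and 0.263, and Cd34, at 0.0526 and 0.0404, were low like Kit. In the same order Spn had 3.16 and 3.67, Erg 1.26 and 1.94, and Vpreb1 51.2 and 93.2. Cd2 and Ms4a1, used as markers from about the pre-B stage, were among the markers at high level. These levels do not settle the stage, and the pro-B label was not tested further. Library totals ran from 43974037 to 57988772 counts. Summed Y-linked genes lay between 496 and 506 CPM in labelled knockout 2 and 4 and in wild type 2, and at 2.73 CPM or less in the other 5 libraries. Wild type 2 also held 61.6 CPM of Xist, the RNA that silences one X chromosome, so it held signals of both sexes.

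As B cells mature from pro-B cells to follicular and marginal zone B cells, they change the proteins on their surface. CD20, the product of Ms4a1, appears around the pre-B stage and stays until the plasma cell, and CD2 likewise marks B lineage cells from about the pre-B stage in mice. CD21/CD35, from Cr2, and CD23, from Fcer2a, come late and are used to part marginal zone from follicular B cells. CD24, from Cd24a, is high on precursors and immature B cells and lower on mature follicular cells, so it runs against the order of the others. CD86 is low on resting B cells and is raised by activation.

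Per length, the 9 markers fell into a high group of 6 genes and a low group of 3. Levels between genes were compared as CPM per kb of exon, with the length summed over all annotated exons of a gene. A single transcript can be much shorter, as for Cd52 (514 against 1187 bases), or nearer that sum, as for Cd38 (3270 against 3890 bases). The order of genes close in level may therefore depend on the length used. In the libraries labelled knockout the mean levels were 797 CPM per kb for Cd24a, 319 for Cd37, 204 for Cd38, 152 for Cd2, 150.1 for Cd52 and 106 for Ms4a1. In wild type they were 933 CPM per kb for Cd24a, 256 for Cd37, 198 for Cd38, 177 for Cd52, 144 for Cd2 and 124 for Ms4a1. Low were the late and inducible genes. Fcer2a had 5.03 CPM per kb in the libraries labelled knockout and 6.26 in wild type, Cd86 had 2.55 in the libraries labelled knockout and 2.27 in wild type, and Cr2 had 0.516 in the libraries labelled knockout and 0.618 in wild type. The order was the same in both groups except that Cd2 and Cd52 changed places. In the libraries labelled knockout Cd2 and Cd52 were the only neighbours in the order whose ranges overlapped. In wild type Cd38 overlapped Cd52, Cd52 overlapped Cd2 and Cd2 overlapped Ms4a1. Among all genes tested, Cd24a stood above 99.7% in level per length and Cr2 above 25.5%.

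**Figure D1:**
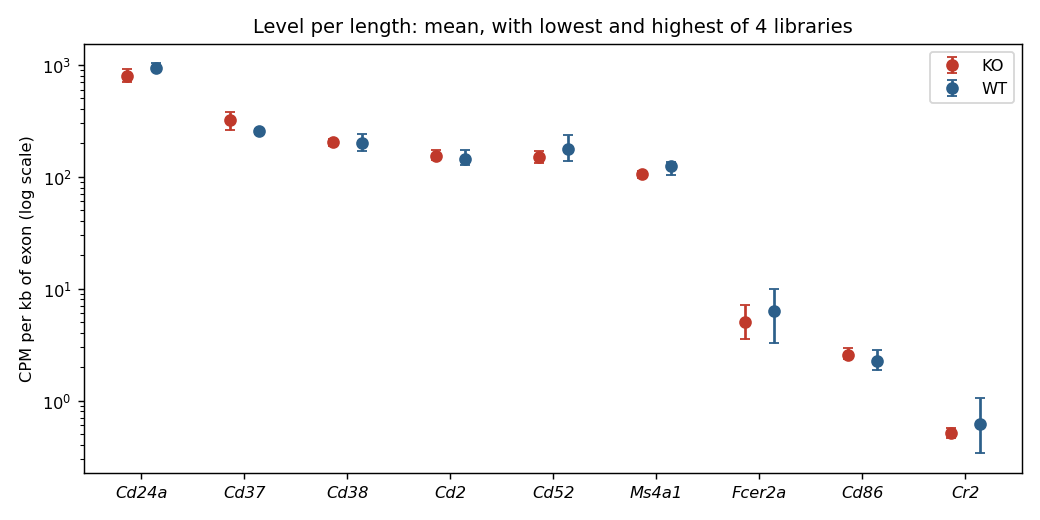
Mean level of each marker per kilobase of exon (log scale) in the libraries labelled knockout (KO, red, left of each pair) and wild type (WT, blue); bars run from the lowest to the highest of 4 libraries. Cd24a stood highest, at 797 CPM per kb in the libraries labelled knockout and 933 in wild type, and Cr2 lowest, at 0.516 in the libraries labelled knockout and 0.618 in wild type.

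No marker passed the test between the groups. With edgeR and Benjamini-Hochberg adjustment over 18884 genes, 0 genes (0%) and 0 of the 9 markers had an adjusted p under 0.05. Before adjustment 2388 genes (12.6%) had a p under 0.05, of which 1045 (5.53%) were on the higher and 1343 (7.11%) on the lower side in the libraries labelled knockout. Of the 9 markers 2 were among them, Cd37 on the higher side and Cd24a on the lower side. Against a background of 12.6%, 2 of 9 is too small a number to read as a result about the markers. DESeq2 called 0 genes, with 2620 below 0.05 before adjustment, and limma-voom called 0, with 3758. Without wild type 4, 363 genes passed in edgeR, none of them a marker. Of the markers 4 had a positive and 5 a negative log2 fold change, with a median of -0.23 on the log2 scale, against 0.0033 over all genes tested. The CPM of the groups did not overlap for 1283 genes (6.79%; 2.62% above and 4.17% below wild type) and for 0 of the 9 markers. In bulk RNA, fewer cells of a type and less RNA per cell cannot be told apart.

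**Figure D2:**
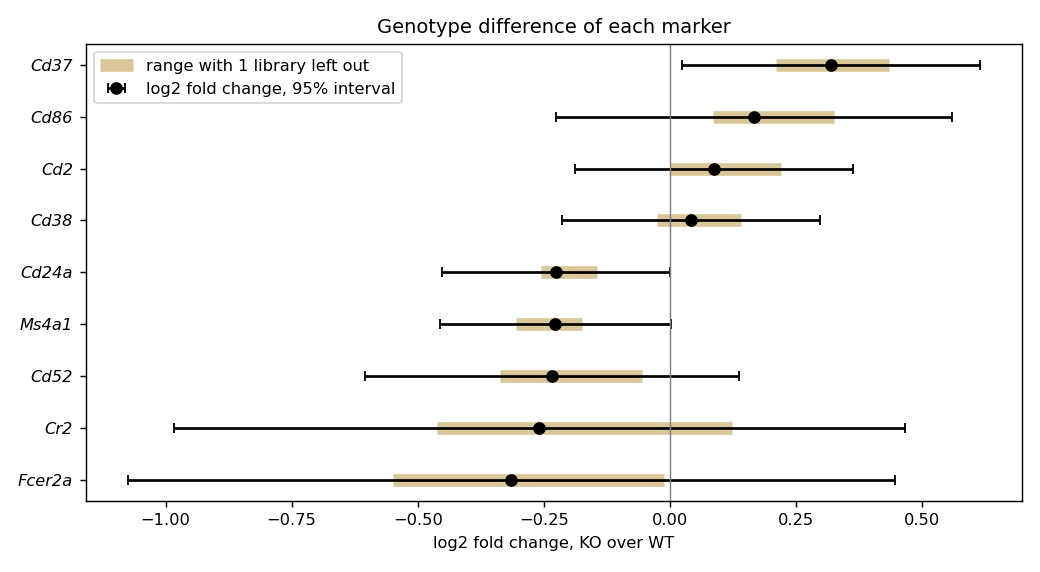
Log2 fold change of each marker, libraries labelled knockout (KO) over wild type (WT), with its 95% interval (line) and the range of the estimate when 1 library at a time was left out (band). Only the intervals of Cd37 and Cd24a lay to one side of 0, and neither passed the adjusted test.

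Among the proteins that cross the membrane several times, Cd37 was the marker with the largest positive difference. CD37 is a tetraspanin, a protein that organises other receptors into membrane patches (ENSMUSG00000030798.15, chr7:45233632-45239115, minus strand, mm10). Its counts were 1337, 944, 1287 and 924 CPM in labelled knockout 1 to 4, against 853, 876, 934 and 938 CPM in wild type 1 to 4. Labelled knockout 1 and 3 stood above every other library, while labelled knockout 2 and 4 lay close to wild type. The means were 1123 ± 219 CPM in the libraries labelled knockout and 900.4 ± 42.6 CPM in wild type (SD, n = 4 each), a log2 fold change of 0.32 ± 0.13 (SE; 95% interval 0.02 to 0.61, edgeR adjusted p = 0.391). Labelled knockout 1 and 3 are also the libraries of that group that lack Y-linked counts, and without both the log2 fold change was 0.03, against 0.21 without labelled knockout 1 alone. In 1 fit of the 4 combinations of genotype and Y-linked counts, a design added after the data were seen, the log2 fold change of Cd37 was 0.53 ± 0.08 (SE, adjusted p = 0.0489) among libraries lacking Y-linked counts, where 129 genes (0.683%) were called. The call was lost when the libraries lacking Y-linked counts were fitted alone, at 0.56 ± 0.10 (SE, adjusted p = 0.160) with 0 genes called. In the fit of the 4 combinations it was 0.09 ± 0.11 (SE, adjusted p = 0.762) among libraries with Y-linked counts, which hold a single wild type library and where 1 gene (0.0053%) was called. The difference between these effects, 0.44 ± 0.14 (SE), did not pass (adjusted p = 0.686). Exons of Cd37 share 13 bases with Tead2 on the other strand, 0.37% of their length.

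The promoter window of Cd37 is shown because Cd37 had the smallest unadjusted p of the markers (0.0373). It runs from 250 bases before to 50 after the RefSeq start (GRCm38.p6, chr7:45238790-45239089, minus strand), and capitals mark the ETS core GAGGAA, to which PU.1-type factors bind, on either strand.
Cd37 promoter: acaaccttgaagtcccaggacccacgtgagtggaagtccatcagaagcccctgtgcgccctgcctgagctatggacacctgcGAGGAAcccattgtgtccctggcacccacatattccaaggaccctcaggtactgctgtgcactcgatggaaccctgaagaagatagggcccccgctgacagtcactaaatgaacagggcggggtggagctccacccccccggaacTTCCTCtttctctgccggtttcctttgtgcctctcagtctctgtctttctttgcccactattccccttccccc
The first match begins at -168 from the start and the second, read as TTCCTC, at -23, and they do not overlap any other motif searched. Of all 32851 RefSeq windows of that length 28.3% held GAGGAA on either strand, so a match is common and is a description of these letters only.

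Ms4a1 was lower in all 4 libraries labelled knockout than the wild type mean, without passing the test. CD20 is the tetraspan protein of B cells that anti-CD20 antibodies bind (ENSMUSG00000024673.9, chr19:11249675-11266241, minus strand). It had 701, 670.1, 596 and 663 CPM in labelled knockout 1 to 4, against 796, 802, 838 and 641 CPM in wild type 1 to 4. Wild type 4 lay among the libraries labelled knockout, so the groups overlapped, and the other 3 wild type libraries lay above them all. The means were 657 ± 44.2 CPM in the libraries labelled knockout and 769.6 ± 87.4 CPM in wild type (SD, n = 4 each), a log2 fold change of -0.23 ± 0.10 (SE; 95% interval -0.46 to 0.0014, edgeR adjusted p = 0.395). In a fit added after the data were seen, without wild type 4 and with sex by Y-linked genes as a covariate, it was called at -0.31 (adjusted p = 0.0498), as were 16% of all genes tested.

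The late receptors Cr2 and Fcer2a varied widely between libraries, Fcer2a in both groups and Cr2 in wild type only. Cr2 encodes the complement receptors CD21 and CD35, which bind C3 fragments (ENSMUSG00000026616.16, chr1:195136811-195176716, minus strand). It had 3.77, 4.60, 4.35 and 4.09 CPM in labelled knockout 1 to 4, against 8.58, 5.34, 3.48 and 2.74 CPM in wild type 1 to 4, from 153 to 383 counts a library. The libraries labelled knockout lay within the range of wild type, whose coefficient of variation of 51.7% was higher than that of 92.2% of genes, against 8.42% in the libraries labelled knockout. The log2 fold change was -0.26 ± 0.32 (SE; 95% interval -0.98 to 0.47, edgeR adjusted p = 0.742), and it was 0.12 without wild type 1.

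Fcer2a encodes CD23, the low-affinity receptor of IgE, which the protease ADAM10 sheds (ENSMUSG00000005540.10, chr8:3681737-3694175, minus strand). It had 22.1, 17.7, 11.5 and 10.8 CPM in labelled knockout 1 to 4, against 30.4, 20.4, 16.5 and 10.1 CPM in wild type 1 to 4. The groups overlapped over most of their ranges, and the spread within each group was wider than the gap between the means of 15.6 ± 5.38 CPM in the libraries labelled knockout and 19.3 ± 8.50 CPM in wild type (SD, n = 4 each). The log2 fold change was -0.31 ± 0.34 (SE; 95% interval -1.07 to 0.45, edgeR adjusted p = 0.696), and from -0.55 to -0.01 with 1 library left out. In both groups Fcer2a fell in order from library 1 to library 4. With the replicate number as a further term of the fit, the log2 fold change was -0.27 ± 0.16 (SE, edgeR adjusted p = 0.416). The coefficient of variation of Fcer2a was above that of 93.2% of genes in the libraries labelled knockout and of 89.7% in wild type. Transcripts of 280 other genes match Fcer2a at 90% or more over at least 100 bases, the longest over 166 bases, and fragments with several alignments were counted at each, so its level is uncertain to that extent.

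Both promoters are shown to set these low-level genes beside each other. Fcer2a has 3 RefSeq windows, of which the one at the start of the gene is printed. The windows lie around the RefSeq start (GRCm38.p6; Cr2 chr1:195176670-195176969 and Fcer2a chr8:3694125-3694424, both minus strand), with the TATA box TATAAA in capitals.
Cr2 promoter: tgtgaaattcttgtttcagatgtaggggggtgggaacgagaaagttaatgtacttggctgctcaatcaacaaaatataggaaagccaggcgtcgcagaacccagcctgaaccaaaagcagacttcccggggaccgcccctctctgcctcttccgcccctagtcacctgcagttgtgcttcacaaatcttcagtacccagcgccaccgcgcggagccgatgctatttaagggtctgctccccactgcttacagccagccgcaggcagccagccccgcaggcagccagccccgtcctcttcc
Fcer2a promoter: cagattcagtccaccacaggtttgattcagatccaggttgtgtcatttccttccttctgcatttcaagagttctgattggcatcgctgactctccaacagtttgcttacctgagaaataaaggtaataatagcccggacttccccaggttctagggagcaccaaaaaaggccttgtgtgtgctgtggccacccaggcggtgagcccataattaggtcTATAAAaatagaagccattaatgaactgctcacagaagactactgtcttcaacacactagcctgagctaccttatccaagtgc
The printed window of Fcer2a held TATAAA at -33 from the start, a motif present in 13.6% of all windows on either strand. Of the other windows of Fcer2a, chr8:3690812-3691111 held the E-box CAGCTG at -30 and chr8:3690341-3690640 held no motif searched. The window of Cr2 held none of the 5 motifs searched. These were the EBF core CCCNNGGG (13.7% of windows), the octamer ATGCAAAT (1.74%), GAGGAA, the E-box CAGCTG (16.3%) and TATAAA. RefSeq windows were found for 4 of the 9 markers, those of Cd37, Cr2, Fcer2a and Cd38.

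The small anchored glycoproteins Cd24a and Cd52 both had negative log2 fold changes. Each encodes a short precursor that is trimmed to a peptide held in the membrane by a lipid anchor and covered in sugars. Their coding sequences are shown whole because they are so short, 231 bases for Cd24a and 225 for Cd52, with start and stop codons in capitals (GENCODE M21, GRCm38).
Cd24a coding sequence: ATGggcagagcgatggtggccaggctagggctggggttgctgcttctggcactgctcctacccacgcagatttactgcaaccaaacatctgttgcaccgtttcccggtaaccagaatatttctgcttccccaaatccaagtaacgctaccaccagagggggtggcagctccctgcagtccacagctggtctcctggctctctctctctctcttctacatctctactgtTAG
Cd52 coding sequence: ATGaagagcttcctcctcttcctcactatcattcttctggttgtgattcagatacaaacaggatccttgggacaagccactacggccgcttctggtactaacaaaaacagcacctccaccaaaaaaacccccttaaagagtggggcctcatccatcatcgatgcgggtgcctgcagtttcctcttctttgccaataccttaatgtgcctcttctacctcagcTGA
By comparison Cr2 has a coding sequence of 4227 bases. The exons of Cd24a sum to 2580 bases, so most of the length over which its fragments were counted lies outside the coding part.

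Cd24a, whose product binds Siglec-G and P-selectin (ENSMUSG00000047139.9, chr10:43578284-43584265, plus strand), had 1879, 2363, 1826 and 2160.3 CPM in labelled knockout 1 to 4. In wild type 1 to 4 it had 2335, 2648, 2340.0 and 2304 CPM. Labelled knockout 1 and 3 were the lowest of the 8 libraries, labelled knockout 4 also lay below all of wild type, and labelled knockout 2 lay within it. The means were 2057 ± 251 CPM in the libraries labelled knockout and 2407 ± 161 CPM in wild type (SD, n = 4 each), a log2 fold change of -0.23 ± 0.10 (SE; 95% interval -0.45 to -5e-04, edgeR adjusted p = 0.395). It was -0.145 without wild type 2, the highest library, and -0.11 without labelled knockout 1 and 3. In the added fit without wild type 4 and with sex as a covariate it was called at -0.29 (adjusted p = 0.0422), again beside 16% of all genes. Red cell precursors and neutrophils also express this gene. The 12 erythroid markers in the table summed to between 493 and 2094 CPM in the libraries labelled knockout and between 2695 and 6825 CPM in wild type. None of these 12 was at 0 in any library, and 10 of the 11 tested had a negative log2 fold change. The sums were uneven in make-up: Tfrc alone held 243 of the 493 CPM in labelled knockout 1 and no less in any other library. The globin gene Hba-a1 had 70.8 to 543 CPM in the libraries labelled knockout and 702 to 2179 CPM in wild type. The neutrophil markers summed to between 127 and 519 CPM in the libraries labelled knockout and between 276 and 588 CPM in wild type, with 14 of 15 lower and Mpo at 0 in at least 1 library. The part of either in the value of Cd24a was not tested. Processed pseudogenes share sequence with Cd24a: Gm6212 had 55 to 137 counts and Gm15352 0 to 4, far below the 91129 or more of Cd24a.

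Cd52, an antigen of lymphocytes bound by the antibody alemtuzumab in humans (ENSMUSG00000000682.7, chr4:134082448-134095082, minus strand), had 186, 202, 158 and 167 CPM in labelled knockout 1 to 4. In wild type 1 to 4 it had 163, 208, 282 and 184 CPM. Wild type 3 stood alone above the others, and the remaining libraries of both groups were mixed. The log2 fold change was -0.23 ± 0.17 (SE; 95% interval -0.60 to 0.14, edgeR adjusted p = 0.547), and with 1 library left out it ranged from -0.34 to -0.06. Of its exon bases 14.49% are shared with Crybg2 on the other strand, and no strand setting is recorded. Fragments in the shared part may be wrongly assigned or left out, so its level is uncertain to that extent.

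**Figure D3:**
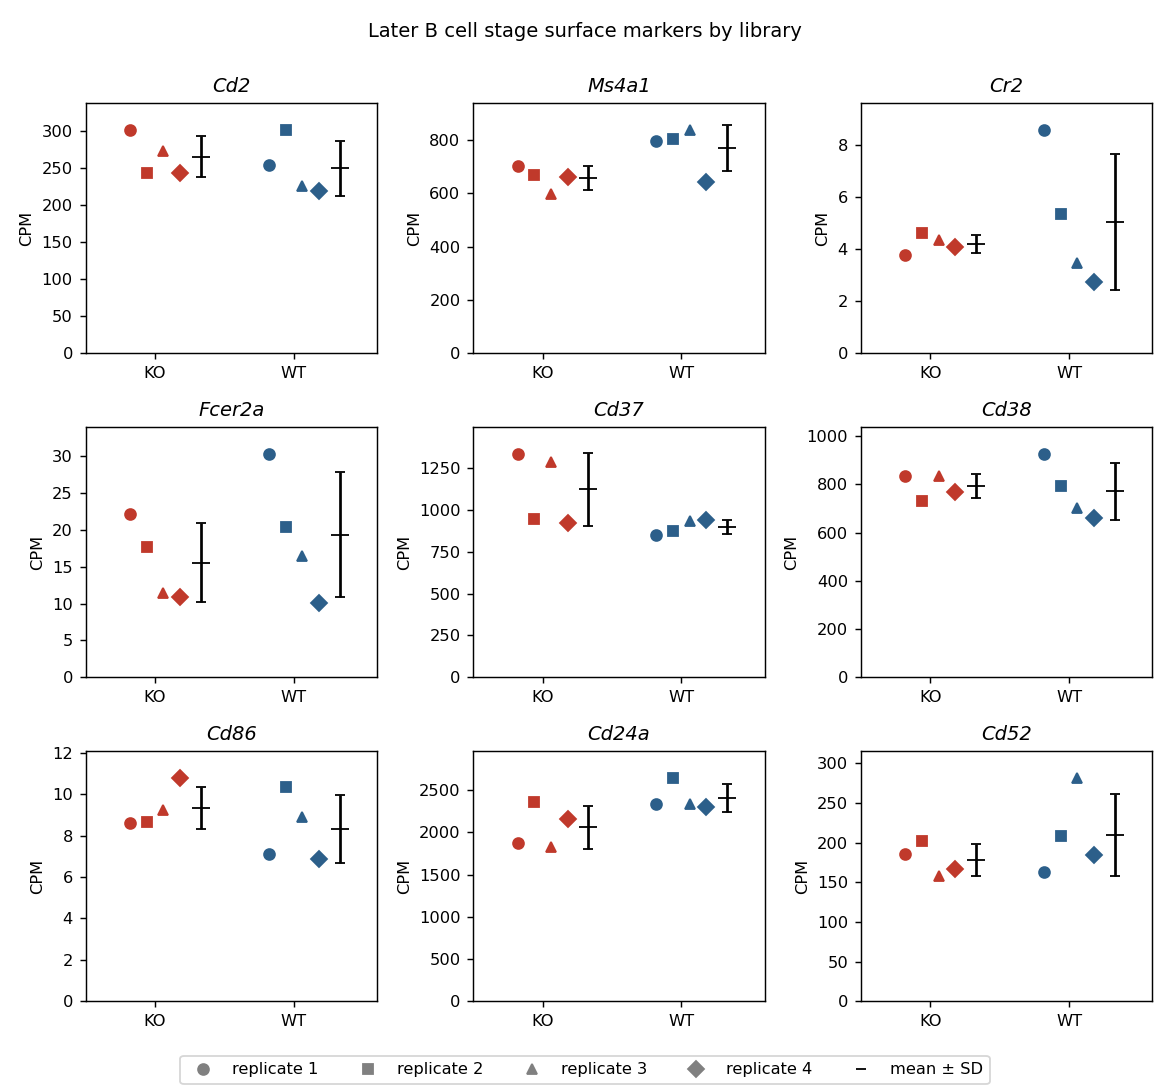
CPM of each of the 9 markers in each library, one panel per gene, with the libraries labelled knockout (KO) left of wild type (WT). Groups overlapped for all 9 genes; in Cd37 labelled knockout 1 and 3, at 1337 and 1287 CPM, stood above the other 6 libraries.

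For the enzyme and the receptors of cell contact, Cd38, Cd2 and Cd86, the intervals spanned 0. Cd38 encodes an ectoenzyme that degrades NAD and makes cyclic ADP-ribose (ENSMUSG00000029084.5, chr5:43868553-43912375, plus strand). It had 836, 732, 835 and 770.0 CPM in labelled knockout 1 to 4, against 927, 792, 704 and 660.2 CPM in wild type 1 to 4. Transcripts of 6 other genes match Cd38 at 90% or more over at least 100 bases, the longest over 120 bases. The level of Cd38 is uncertain to that extent. The libraries labelled knockout lay within the wild type range, and the log2 fold change was 0.04 ± 0.11 (SE; 95% interval -0.21 to 0.30, edgeR adjusted p = 0.893), with a negative sign under upper quartile scaling (-0.057). Its promoter window is shown as that of a high-level marker (RefSeq, GRCm38.p6, chr5:43868559-43868858, plus strand); it held none of the 5 motifs.
Cd38 promoter: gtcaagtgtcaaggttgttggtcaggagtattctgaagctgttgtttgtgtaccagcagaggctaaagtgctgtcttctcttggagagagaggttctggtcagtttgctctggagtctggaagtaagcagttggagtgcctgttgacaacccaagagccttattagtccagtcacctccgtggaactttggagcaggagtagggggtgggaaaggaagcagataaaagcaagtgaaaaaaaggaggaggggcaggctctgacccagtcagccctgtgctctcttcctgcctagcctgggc
Cd2 encodes an adhesion receptor of the immunoglobulin family that binds CD48 in mice (ENSMUSG00000027863.8, chr3:101275899-101287939, minus strand). It had 302, 243, 273 and 243 CPM in labelled knockout 1 to 4, against 254, 300.5, 225 and 219 CPM in wild type 1 to 4. Labelled knockout 1 and wild type 2 were the highest, so each group held a high library. The log2 fold change was 0.09 ± 0.12 (SE; 95% interval -0.19 to 0.36, edgeR adjusted p = 0.775), and -0.018 under upper quartile scaling. In the fit of genotype and Y-linked counts it was 0.30 ± 0.10 (SE) among libraries lacking Y-linked counts and -0.31 ± 0.13 (SE) among those with them, a difference of 0.61 ± 0.17 (SE) that did not pass (edgeR adjusted p = 0.668). T and NK cells also express Cd2: the 12 T cell markers summed to between 4.05 and 7.66 CPM in the libraries labelled knockout and between 4.55 and 8.60 CPM in wild type, with Cd3e, Cd3g, Cd8a, Cd8b1 and Themis at 0 in at least 1 library. The 13 NK and innate lymphoid markers summed to between 10.4 and 39.8 CPM in the libraries labelled knockout and between 41.4 and 58.7 CPM in wild type, 10 of 12 tested lower. Their part in the value of Cd2 was not tested.

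Cd86 encodes a ligand of CD28 and CTLA-4 on T cells (ENSMUSG00000022901.13, chr16:36603869-36666081, minus strand). It had 8.62, 8.65, 9.24 and 10.8 CPM in labelled knockout 1 to 4, against 7.13, 10.4, 8.88 and 6.87 CPM in wild type 1 to 4. The highest library of each group, labelled knockout 4 and wild type 2, lay close together, and the log2 fold change was 0.17 ± 0.18 (SE; 95% interval -0.23 to 0.56, edgeR adjusted p = 0.689). Dendritic cells and macrophages express Cd86 at high levels. Markers of dendritic cells summed to between 593 and 800.1 CPM in the libraries labelled knockout and between 417 and 643 CPM in wild type. Of the 10 tested, 5 had a positive and 5 a negative log2 fold change, with a median of 0.0107. Most of the sum came from Irf8 and Tcf4, which B lineage cells also express. Irf8 had 309.9 to 523 CPM in the libraries labelled knockout and 105 to 394 CPM in wild type. Markers of monocytes and macrophages summed to between 195 and 351 CPM in the libraries labelled knockout and between 291 and 432 CPM in wild type, 10 of 11 tested lower. Much of these sums came from 1 gene, Ctss, at 154 to 170 CPM in the libraries labelled knockout and 154 to 182 CPM in wild type. Of the dendritic cell markers Clec9a was at 0 in at least 1 library. The part of these cells in the value of Cd86 was not tested. Its relative Cd80 was close to absent, with 0.408 CPM in the libraries labelled knockout and 0.528 CPM in wild type.

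The markers differed in which libraries were high and low. Expressed as log2 differences from the wild type mean, labelled knockout 1 was at 0.57 for Cd37 and -0.35 for Cd24a, and labelled knockout 3 at 0.52 for Cd37 and -0.40 for Cd24a. In the same terms labelled knockout 2 was at 0.07 for Cd37 and -0.02 for Cd24a, and labelled knockout 4 at 0.04 for Cd37 and -0.15 for Cd24a. The libraries highest in Cd37 were thus the lowest in Cd24a. Over 8 libraries Cd37 and Cd24a had a Pearson r of -0.907 (exact permutation p = 0.00952, adjusted 0.252 over 36 pairs of markers) and a Spearman rho of -0.548 (exact permutation p = 0.171, adjusted 0.616). Without labelled knockout 1 and 3 r was -0.432, so the relation rests on them. Cr2 and Cd38 had a Pearson r of 0.816 over 8 libraries (exact permutation p = 0.014, adjusted 0.252) and a Spearman rho of 0.643 (exact permutation p = 0.0962, adjusted 0.433). Without wild type 1 and 4, the libraries farthest from the median of Cr2, r was 0.24, so that relation also rests on 2 libraries. No pair passed adjustment over the 36.

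**Figure D4:**
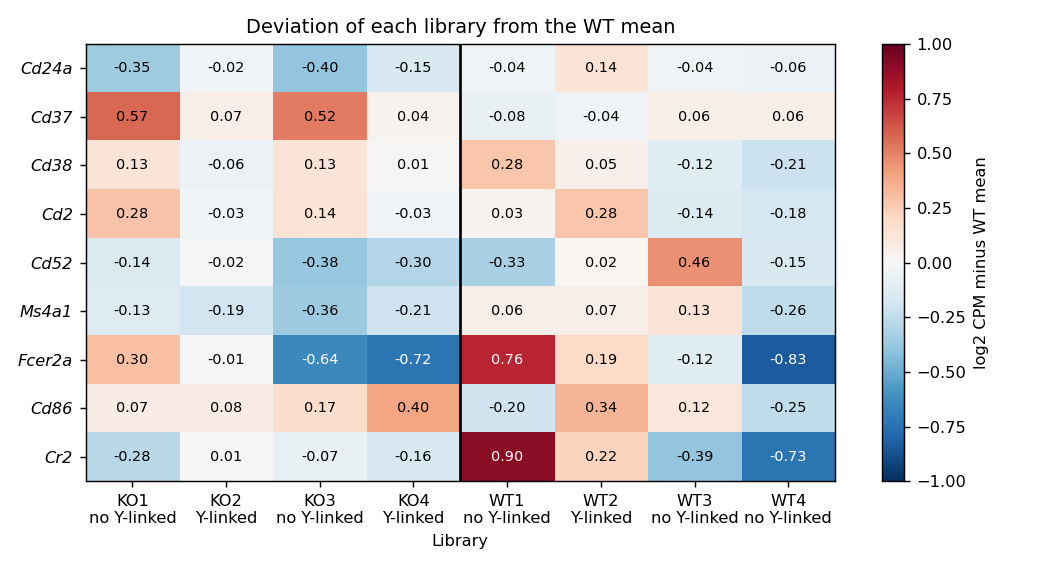
Log2 difference of each marker from its wild type mean in each library; columns are the libraries labelled knockout (KO) and then wild type (WT), and the colour scale ends at -1 and 1. Cd37 and Cd24a lay on opposite sides of 0 in labelled knockout 1 and 3.

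Genes that work with the markers were read from lists, whose genes had been named with earlier results known. Among 15 direct partners and ligands tested, 8 had a positive and 7 a negative log2 fold change, with a median of 0.0018 and 0 called. Of the 15, 3 on the higher side and 1 on the lower had an unadjusted p under 0.05, against 5.53% and 7.11% of all genes. These are too few genes to read as a result about the partners. The one with the smallest unadjusted p was Adam10, the protease that sheds CD23, at 447 ± 44.2 CPM in the libraries labelled knockout and 315 ± 61.0 CPM in wild type (SD, n = 4 each; log2 fold change 0.50 ± 0.14, SE, adjusted p = 0.391). Pstpip1, an adaptor that binds the tail of CD2, averaged 42.2 ± 2.86 CPM in the libraries labelled knockout and 34.9 ± 2.16 CPM in wild type. Its groups did not overlap, as was so for 2.62% of all genes on the higher side. Among genes of the same families or enzyme activity as a marker 21 of 24 had a negative log2 fold change, with a median of -0.17 and 0 called, where 50.4% of all genes had a positive one. On the lower side 2 of these 24 had an unadjusted p under 0.05, against 7.11% of all genes. Slamf7, a SLAM family relative of CD2, averaged 324 ± 17.2 CPM in the libraries labelled knockout and 378 ± 21.4 CPM in wild type. Cd48, the ligand of CD2, averaged 193 ± 21.0 CPM in the libraries labelled knockout and 230 ± 9.96 CPM in wild type, a log2 fold change of -0.25 ± 0.10 (SE, adjusted p = 0.391).

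Other genes of later B cell stages and genes of the pro-B stage had medians of opposite sign, and none passed. Of 27 genes of later stages 19 had a positive log2 fold change, with a median of 0.15, and 2 on the higher side and 0 on the lower had an unadjusted p under 0.05. Il4ra averaged 132 ± 10.02 CPM in the libraries labelled knockout and 99.98 ± 10.1 CPM in wild type, a log2 fold change of 0.40 ± 0.10 (SE, adjusted p = 0.391). Tnfrsf13b, the receptor TACI, averaged 315 ± 20.6 CPM in the libraries labelled knockout and 204 ± 80.1 CPM in wild type. Wild type 4, at 313 CPM of Tnfrsf13b, lay within the range of the libraries labelled knockout. Of 19 genes of the pro-B and progenitor stages 14 had a negative log2 fold change, with a median of -0.22, and 5 on the lower side and 1 on the higher had an unadjusted p under 0.05. Over all genes these shares were 7.11% on the lower and 5.53% on the higher side. Enpep, the surface peptidase BP-1, averaged 17.6 ± 8.96 CPM in the libraries labelled knockout and 33.0 ± 12.5 CPM in wild type. The progenitor factor Sox4 instead averaged 183 ± 27.1 CPM in the libraries labelled knockout and 144 ± 17.4 CPM in wild type. For Enpep and for Sox4 the groups overlapped. The pan-B genes had 6 positive and 4 negative values with a median of 0.10. Ebf1, a factor that sets B lineage identity, averaged 761 ± 144 CPM in the libraries labelled knockout and 575 ± 30.0 CPM in wild type, and Pax5, which keeps it, 226 ± 29.9 CPM in the libraries labelled knockout and 196 ± 27.1 CPM in wild type. None of these lists had a gene called.

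The genes most like each marker over the 8 libraries were named by the highest Pearson r of log2 CPM among 8706 genes, with no test since each was the highest of many. They were Lysmd1 for Cd2 (r = 0.927), Ly9 for Ms4a1 (r = 0.947), Dclre1b for Fcer2a (r = 0.946) and Sppl3 for Cd37 (r = 0.987). For the others they were Gnpda1 for Cd38 (r = 0.963), Serpina3f for Cd86 (r = 0.892), Decr1 for Cd24a (r = 0.985) and Med11 for Cd52 (r = 0.961). Cr2 was below the 5 CPM needed for this. The points share libraries and scaling, and the list describes only these libraries.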

How the data were processed

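RNA was measured in 8 libraries of mouse cells labelled as pro-B cells, 4 labelled CD25 knockout and 4 wild type. The authors deposited raw fragment counts for each gene. Per the file headers, featureCounts 2.0.1 counted read pairs over GENCODE M25 exons, taking each alignment of multi-mapping fragments and recording no strand option. This can inflate genes with near-identical copies and makes counts uncertain where genes on opposite strands overlap. The submitters' processing notes name mm10, STAR 2.7.7a and GATK 4.1.9.0, without the role of each. The summed exon length per gene, per the file headers, was used for CPM per kb only. The 55487 genes were named from GENCODE M21 (55227 named, 260 unnamed). No library repeated another (chi-square over degrees of freedom 25.2 or more in each of 12 pairs within groups).

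From these counts, genes were filtered with filterByExpr (18884 kept), scaled with TMM and tested with edgeR 4.0.16 (robust quasi-likelihood, two-sided, genotype as the only term) in R 4.3.3, with Benjamini-Hochberg adjustment at 0.05 over all of them. CPM are TMM-scaled, and errors are SD of 4 libraries or SE of the log2 fold change. Dispersion corresponded to a biological coefficient of variation of 0.308, with a median SE of 0.16 for genes at 5 CPM or more. The method was tested on simulated data, with changes set in genes at 5 CPM or more. It called 5 of 67 changes of 1.5-fold (7.46%), 41 of 67 of 2-fold (61.2%) and 63 of 66 of 4-fold (95.5%). It also called 8 genes in which no change was set. Counts were drawn gene by gene, so effects shared across the genes of a library were not simulated. The share called fell with the size of the change, and changes as small as those of the markers were not simulated. A marker that was not called is therefore not shown to be unchanged. DESeq2 1.42.0, limma-voom (limma 3.58.1), other scalings and filters, a replicate block, sex by Y-linked genes as a covariate and left-out libraries were alternatives. Correlations between markers used exact permutation. The members and lists were chosen with earlier results of these data known. The named genes were the 9 markers and Il2ra. From each list they were the genes past the adjusted p, or else the 2 with the smallest unadjusted p. For each marker the gene with the highest r was also named. Kit, Cd79a, Cd80, Il7r, Rag1, Dntt, Flt3, Cd34, Spn, Erg, Vpreb1, Tfrc, Hba-a1 and Ctss were added after their values were seen. Some genes of the lists are not reported here by name.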

Additional observations from a re-analysis of the deposited data

Results flagged for a closer look

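Of 36 groups of 4 libraries checked for a library far from the others, 2 were past Dixon's limit for the gap divided by the range. Chance passes about 1 group in 20. Cd24a in wild type 2, at 2647.6 CPM, lay above the other wild type libraries by 0.895 of the group's range. The summed erythroid markers in wild type 4, at 6825.0 CPM, lay above the other wild type libraries by 0.848 of the range.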

How the results depend on the processing

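Of 198 values of the markers under 18 planned and 4 added settings, 185 kept their direction and side of the threshold, 10 changed sign and 3 became called. With all 8 libraries and sex by Y-linked genes as a covariate, a planned setting, 0 genes were called. Under it Cd37 was 0.37 ± 0.10 (SE, edgeR adjusted p = 0.0784) and Cd24a -0.29 ± 0.07 (SE, edgeR adjusted p = 0.0720). The number of genes called was 0 to 363 when 1 library was left out, the 363 without wild type 4 (358 higher, 5 lower). With wild type 4 out and sex by Y-linked genes as a covariate, added after seeing the data, it was 3112 (16% of genes tested), with Ms4a1 at -0.31 (adjusted p = 0.0498) and Cd24a at -0.29 (adjusted p = 0.0422) called and Cd38 at -0.0093. In the fit of 4 combinations it was 129 among libraries lacking Y-linked counts, with Cd37 at 0.53, and 1 among those with them, with Cd2 at -0.31, Cd38 at -0.076 and Cd86 at -0.092. Upper quartile scaling, under which the median of all genes was -0.09, gave -0.018 for Cd2 and -0.057 for Cd38. Without labelled knockout 1 and 3, Cd2 was -0.062 and Cd38 -0.055. With 1 library left out Cr2 ranged from -0.46 to 0.12 and Cd38 from -0.025 to 0.14. The cause was not tested. With the replicate block 0 genes were called and Cd37 was 0.30 (edgeR adjusted p = 0.316). Residual correlations of same-numbered libraries ran from -0.033 to 0.636. Of the libraries labelled knockout 1 of 4 correlated best with its own number, and of wild type 2 of 4. The numbers were therefore not taken as pairs. Cr2, with 153 to 383 counts a library, was the most limited by depth.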
